A study of Mus musculus with 8 samples.

Results

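The transcripts examined here are those of genes that mark neurons making dopamine, serotonin or noradrenaline: Th, Ddc, Slc6a3, Slc18a2, Slc6a4, Tph2, Fev, Dbh, Nr4a2 and Pitx3. They were taken from a whole-brain array study by gene symbol, using each probe set whose only platform symbol was 1 of these names. Of the 10 genes, 7 were measured so, by 8 of the 22626 tested probe sets, with 2 probe sets for Nr4a2 and 1 for each of the others. Slc18a2, Tph2 and Fev were not analysed here. The compared mice were SIRT1 brain-specific knockouts (BSKO, 4 arrays) and wild-type littermates (WT, 4 arrays), all male, C57/B6 and aged 3 months, with 1 brain RNA sample per single-channel Affymetrix Mouse430A_2 array. SIRT1 is an NAD-dependent protein deacetylase. Its deletion is driven by a promoter or Cre line not given in the sources used here. Having 8 arrays limits the precision. The p-values measure the spread between these 4 biological replicates per genotype and take them as independent. WT 1 and WT 2 differed from WT 3 and WT 4 for several genes below, and this is part of that spread.

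Many, but not all, of the brain's monoamine neurons lie in a few small groups in the midbrain and hindbrain and send axons to most of the forebrain. Whole-brain RNA does not show which group of neurons a transcript came from. Dopamine neurons fill the substantia nigra and ventral tegmental area of the midbrain, serotonin neurons the raphe nuclei along the midline of the brainstem, and noradrenaline neurons the locus coeruleus of the pons and groups in the medulla. In the shared synthesis route, tyrosine hydroxylase (Th) or tryptophan hydroxylase makes an amino acid precursor, aromatic amino acid decarboxylase (Ddc) turns it into dopamine or serotonin, and dopamine beta-hydroxylase (Dbh) turns dopamine into noradrenaline. Transporters in the plasma membrane, Slc6a3 for dopamine and Slc6a4 for serotonin, take the released amine back up. In bulk brain RNA, fewer cells of a type and less RNA per cell cannot be told apart.

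Each probe set's deposited log2 values were centred near 0. They show how arrays differ from each other and not how strongly a gene was expressed, so neither the order of the genes by level nor the tissue's identity could be read from them. Array BSKO 2 stood apart from the others. The SD of its values over all tested probe sets was 0.831, against 0.150 to 0.314 on the other 7 arrays. Of the control probe sets for transcript ends, the 5' minus 3' difference for Actb was -2.44 there (log2), while the other 7 ran between -0.104 and 0.489. For Gapdh the difference was -2.43, while the other 7 ran between -0.0749 and 0.0949. For this reason each member's difference between the genotypes is also given without BSKO 2. Sirt1 itself (probe set 1418640_at) had values of 0.08, -1.46, -0.20 and -0.06 on BSKO 1 to 4 and 0.00, 0.00, 0.08 and 0.29 on WT 1 to 4, and it did not pass the test (limma adjusted p = 0.549). Which exons were deleted and where this probe set lies are unknown here, so its values check nothing about the labels.

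The windows of 250 bases before the transcription start of 5 measured genes are printed because these genes differ in how they varied between arrays: Th, Ddc, Slc6a3 and Slc6a4 shared high values on the same WT arrays and Dbh did not. They come from RefSeq (build GRCm38.p6), where all 10 genes matched, with 11 windows because Ddc has 2. Each is written 5′ to 3′ on the strand of its gene. Capitals mark matches on either strand to 4 motifs: TGACGTCA, the cAMP response element, AAAGGTCA, the site bound by the Nr4a family, GGGCGG, the GC box, and TATAAA, the TATA box.
Th, minus strand, chr7:142899996-142900245: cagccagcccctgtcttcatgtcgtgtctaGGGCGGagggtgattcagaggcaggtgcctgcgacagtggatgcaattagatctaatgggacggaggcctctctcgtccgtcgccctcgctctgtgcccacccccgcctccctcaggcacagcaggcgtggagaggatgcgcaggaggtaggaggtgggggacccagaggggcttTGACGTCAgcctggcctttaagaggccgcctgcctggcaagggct
Ddc, minus strand, chr11:11898145-11898394: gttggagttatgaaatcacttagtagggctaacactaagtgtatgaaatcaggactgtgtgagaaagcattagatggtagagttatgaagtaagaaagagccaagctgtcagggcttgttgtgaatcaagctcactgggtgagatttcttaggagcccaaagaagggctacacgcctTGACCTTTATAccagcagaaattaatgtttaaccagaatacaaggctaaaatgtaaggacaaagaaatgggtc
Slc6a3, plus strand, chr13:73536497-73536746: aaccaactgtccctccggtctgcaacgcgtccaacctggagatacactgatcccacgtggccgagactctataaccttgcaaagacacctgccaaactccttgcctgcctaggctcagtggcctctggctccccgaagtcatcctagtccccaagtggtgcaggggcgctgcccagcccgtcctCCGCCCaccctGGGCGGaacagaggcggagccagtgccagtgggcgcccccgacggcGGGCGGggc
Slc6a4, plus strand, chr11:76998347-76998596: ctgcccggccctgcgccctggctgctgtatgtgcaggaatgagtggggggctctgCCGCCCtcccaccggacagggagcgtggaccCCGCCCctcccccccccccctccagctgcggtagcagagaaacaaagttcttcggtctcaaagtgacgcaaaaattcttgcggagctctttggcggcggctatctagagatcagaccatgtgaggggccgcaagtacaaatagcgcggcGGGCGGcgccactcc
Dbh, plus strand, chr2:27165257-27165506: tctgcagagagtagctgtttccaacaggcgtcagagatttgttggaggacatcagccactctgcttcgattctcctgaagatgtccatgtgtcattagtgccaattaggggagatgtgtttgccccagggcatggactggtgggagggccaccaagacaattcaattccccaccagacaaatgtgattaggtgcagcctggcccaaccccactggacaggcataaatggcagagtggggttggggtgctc

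The cAMP response element of Th began 45 bases before the start, and no other of the 11 windows held 1. It occurred in 1.55% of the 32851 RefSeq promoter windows of this length. The Nr4a motif was in 1 window, that of Ddc shown above, where it overlaps the TATA box match, and in 1.34% of all windows. The other Ddc window, at chr11:11890409-11890658 and not printed, held none of the 4 motifs. Which Ddc start is used in brain was not measured. The GC box was in 7 of the 11 windows, with 3 matches each in Slc6a3 and Slc6a4, and in 32.7% of all. TATAAA, on either strand and at any position, was in 3 of the 11, against 12.4% of all. It began 30 bases before the start in Tph2, and 68 in Ddc and 164 in Nr4a2. The Ddc and Nr4a2 matches were on the opposite strand. None of the 4 motifs was found in the Dbh window. These matches describe the letters, and the arrays did not measure binding.

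No member passed the test of BSKO against WT, and 7 of the 8 probe sets had a lower mean in BSKO (46.5% of all tested probe sets did), with a median log2 difference of -0.84, against 0.02 over all tested probe sets. The largest difference was that of Slc6a3, the dopamine transporter, and the next that of Nr4a2, a nuclear receptor that dopamine neurons need for their development and upkeep. Whole-brain RNA does not show which cells the Nr4a2 signal came from. By limma with Benjamini-Hochberg adjustment over the 22626 probe sets, 0 of the 8 had an adjusted p under 0.05, where 0.0309% of all probe sets did. At an unadjusted p under 0.05, 3 of the 8 were lower in BSKO, Slc6a3 and both Nr4a2 probe sets, where 5.22% of all were. Without BSKO 2, the count was again 0 after adjustment (1.63% of all), the median difference was -0.82, and the same 3 had an unadjusted p under 0.05 (19.8% of all in either direction).

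**Figure D1:**
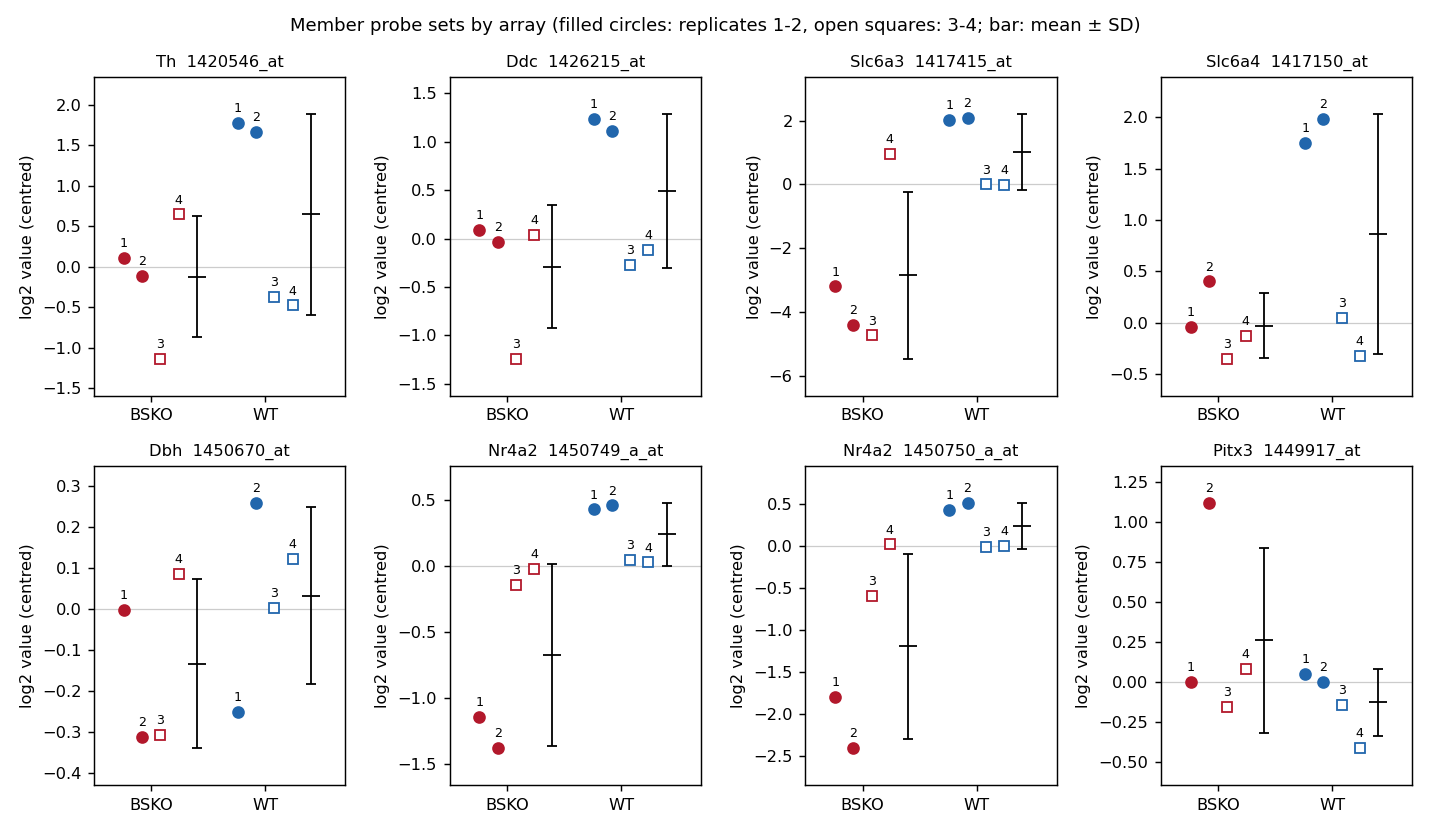
Centred log2 value (vertical axes) of the 8 member probe sets on the 4 BSKO arrays and the 4 WT arrays, with replicate numbers beside the points, filled circles for replicates 1 and 2, open squares for 3 and 4, and black bars for the mean ± SD (n = 4). WT 1 and WT 2 lie above WT 3 and WT 4 for Th, Ddc, Slc6a3, Slc6a4 and Nr4a2, and in Nr4a2 the low BSKO arrays are BSKO 1 and BSKO 2.

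Th, the rate-limiting enzyme of dopamine and noradrenaline synthesis (probe set 1420546_at), had values of 0.11, -0.11, -1.14 and 0.65 on BSKO 1 to 4, against 1.78, 1.67, -0.37 and -0.48 on WT 1 to 4. WT 1 and WT 2 were thus the highest arrays, and WT 3 and WT 4 lay below 3 of the 4 BSKO arrays. The means were -0.12 ± 0.75 in BSKO and 0.65 ± 1.24 in WT (SD, n = 4 each), a difference of -0.77 (SE 0.61), smaller than the SD of the WT arrays, with an adjusted p of 0.612 by limma. It was -0.39 without WT 1, -0.43 without WT 2, -0.43 without BSKO 3 and -0.77 without BSKO 2. Ddc, the decarboxylase that follows it (1426215_at), was at 0.09, -0.03, -1.24 and 0.03 on BSKO 1 to 4, against 1.24, 1.12, -0.27 and -0.11 on WT 1 to 4. Its order of arrays was almost that of Th, with BSKO 3 lowest and WT 1 and WT 2 highest. The difference was -0.78 (SE 0.44, limma adjusted p = 0.526), with -0.46 without BSKO 3 and -0.86 without BSKO 2.

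Slc6a3 (1417415_at) varied more than any other member, over a range of 6.81 on the log2 scale. It was at -3.19, -4.41, -4.73 and 0.96 on BSKO 1 to 4, against 2.02, 2.08, 0.00 and 0.00 on WT 1 to 4. BSKO 1, 2 and 3 lay far below all WT arrays, while BSKO 4 lay above WT 3 and WT 4, so the genotypes overlapped. The means were -2.84 ± 2.62 in BSKO and 1.03 ± 1.19 in WT (SD, n = 4 each), a difference of -3.87 (SE 1.21), which is 14.6-fold lower. It did not pass the test (limma adjusted p = 0.332, and a two-sided permutation p of 0.0857, exact over the 70 arrangements). Without BSKO 4 the difference was -5.14 (SE 0.66, limma adjusted p = 0.0873), and without BSKO 2 it was -3.35 (adjusted p = 0.199).

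Slc6a4, the serotonin transporter gene and the only measured member specific to the serotonin class (1417150_at), was at -0.04, 0.40, -0.35 and -0.13 on BSKO 1 to 4, against 1.75, 1.98, 0.04 and -0.32 on WT 1 to 4. All of its WT excess lay on WT 1 and WT 2, and WT 3 and WT 4 fell within the range of the BSKO arrays. The difference was -0.89 (SE 0.52, limma adjusted p = 0.533), and -1.04 without BSKO 2 (adjusted p = 0.340). It was -0.60 without WT 1 and -0.52 without WT 2.

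Dbh, the enzyme that defines noradrenaline neurons (1450670_at), varied least, over a range of 0.570. It was at 0.00, -0.31, -0.31 and 0.09 on BSKO 1 to 4, against -0.25, 0.26, 0.00 and 0.12 on WT 1 to 4. The genotypes overlapped and WT 1 and WT 2 lay on opposite sides of WT 3 and WT 4. Whether so flat a probe set was detected at all cannot be read from centred values. The difference was -0.17 (SE 0.15, limma adjusted p = 0.639), and leaving out 1 array moved it between -0.26 (without WT 1) and -0.09 (without WT 2), with -0.11 both without BSKO 2 and without BSKO 3.

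Nr4a2 was lower in BSKO on both of its probe sets, mainly on BSKO 1 and BSKO 2. Probe set 1450749_a_at was at -1.14, -1.38, -0.15 and -0.03 on BSKO 1 to 4, against 0.43, 0.46, 0.04 and 0.03 on WT 1 to 4. All BSKO arrays lay below all WT arrays, by a gap between BSKO 4 and WT 4 that was small beside the rest, and this was the only member probe set whose groups did not overlap (6.66% of all probe sets did so in this direction). Its difference was -0.91 (SE 0.32, limma adjusted p = 0.371), and its exact two-sided permutation p of 0.0286 is the lowest possible with 4 arrays per genotype. Without BSKO 2 the groups still did not overlap (10.3% of all), with a difference of -0.68 (adjusted p = 0.215, and a permutation p of 0.0571, the smallest for 3 against 4). Probe set 1450750_a_at was at -1.79, -2.41, -0.59 and 0.02 on BSKO 1 to 4, against 0.44, 0.51, -0.01 and 0.01 on WT 1 to 4, so BSKO 4 lay among the WT arrays. The difference was -1.43 (SE 0.49, limma adjusted p = 0.365), and -1.03 without BSKO 2 (adjusted p = 0.195). Averaged over both probe sets, the Nr4a2 difference was -1.17 (SE 0.39, limma adjusted p = 0.319).

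Pitx3, a homeobox factor of midbrain dopamine neurons (1449917_at), was the 1 member with a higher mean in BSKO. It was at 0.00, 1.12, -0.16 and 0.08 on BSKO 1 to 4, against 0.05, 0.00, -0.15 and -0.41 on WT 1 to 4. The difference of 0.39 (SE 0.27, limma adjusted p = 0.579) was carried by BSKO 2, the array that stood apart, and was 0.10 without it (adjusted p = 0.685).

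The members were then compared within replicates 1 and 2 and within replicates 3 and 4, since the WT arrays fell into these pairs. WT 1 and WT 2 exceeded WT 3 and WT 4 by 2.15 for Th, 1.37 for Ddc, 2.05 for Slc6a3 and 2.01 for Slc6a4 on the log2 scale. Thus 4 of the 8 member probe sets were at least 2-fold higher on WT 1 and WT 2, where 0.265% of all probe sets were. The other 4 differed less, at 0.41 and 0.47 for Nr4a2, 0.31 for Pitx3 and -0.06 for Dbh. With 2 arrays in each pair this is a description with no test, and the labels give no batch or scan date for the numbers.

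In replicates 1 and 2 the BSKO mean lay below the WT mean by 2-fold or more for 6 of the 8 probe sets (3.85% of all), with differences of -1.72 for Th, -1.15 for Ddc, -5.85 for Slc6a3, -1.69 for Slc6a4 and -1.70 and -2.58 for Nr4a2. With BSKO 1 alone against WT 1 and WT 2, and BSKO 2 left out, they were -1.61 for Th, -1.09 for Ddc, -5.24 for Slc6a3, -1.91 for Slc6a4 and -1.58 and -2.27 for Nr4a2. In replicates 3 and 4 only Slc6a3 was 2-fold lower (0.491% of all), at -1.89, and that mean joins -4.73 on BSKO 3 with 0.96 on BSKO 4. The others were within 0.41 of 0 there, with 0.18 for Th, -0.41 for Ddc, -0.10 for Slc6a4, -0.12 and -0.29 for Nr4a2, 0.24 for Pitx3 and -0.17 for Dbh. The median over the 8 probe sets was -1.69 in replicates 1 and 2 and -0.15 in replicates 3 and 4, against 0.04 and 0.00 over all tested probe sets.

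**Figure D2:**
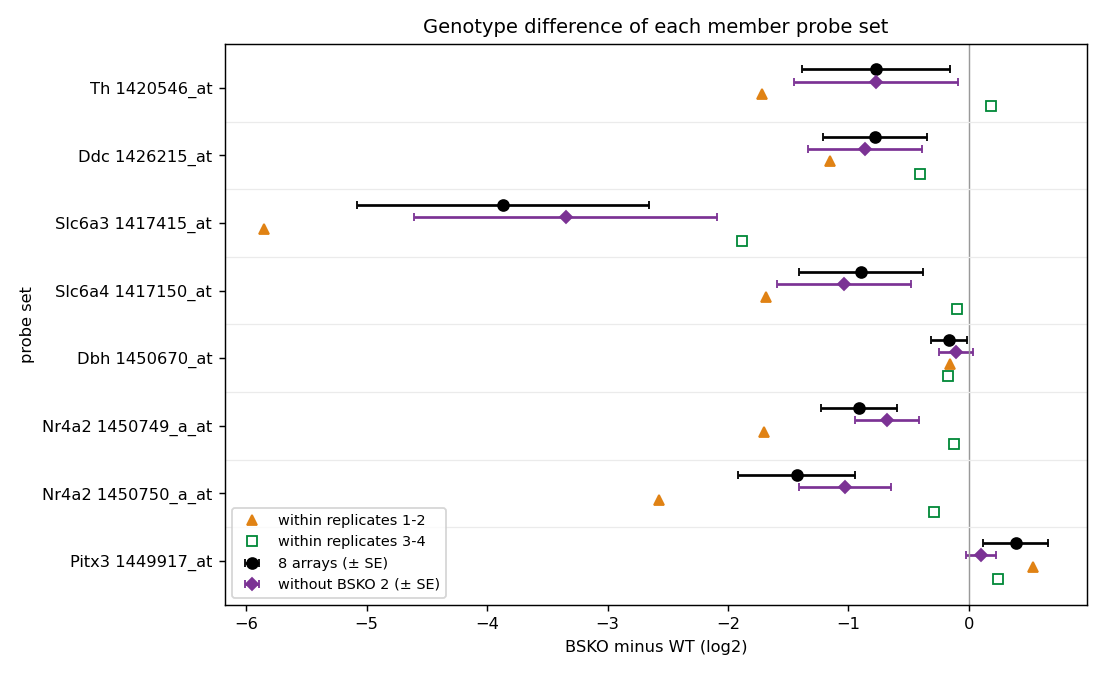
BSKO minus WT on the log2 scale (horizontal axis) for each member probe set, with 8 arrays (circles, ± SE), without BSKO 2 (diamonds, ± SE), within replicates 1 and 2 (triangles) and within replicates 3 and 4 (open squares). For Th, Slc6a4 and Nr4a2 the triangles lie between -1.69 and -2.58 and the squares between -0.29 and 0.18.

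Whether the genotype difference itself differed between the pairs was tested with an interaction term in limma over all probe sets. The WT values that set these pairs apart also enter that term, so its p-values are not independent of the choice of pairs. None of the 8 passed (0.0177% of all did), and 4 had an unadjusted p under 0.05, against 4.84% of all. These 4 were Th, Slc6a4 and both Nr4a2 probe sets, where the difference in replicates 3 and 4 exceeded that in replicates 1 and 2 by 1.90 (SE 0.72) for Th, 1.59 (SE 0.31) for Slc6a4, and 1.58 (SE 0.20) and 2.29 (SE 0.38) for Nr4a2. The adjusted p values were 0.705 for Th, 0.510 for Slc6a4 and 0.240 and 0.415 for Nr4a2. For Th and Slc6a4, replicates 1 and 2 exceeded 3 and 4 by 2.15 and 2.01 in WT, and by 0.25 and 0.42 in BSKO. Without BSKO 2, an alternative added after the data were seen, BSKO 1 stands alone for its genotype in replicates 1 and 2 and is assumed to vary like the other pairs. Of the 8, Nr4a2 1450749_a_at then had a limma adjusted p of 0.0300 (0.186% of all probe sets were called), while Slc6a4 had 0.0756 and Nr4a2 1450750_a_at 0.0955.

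Across the 8 arrays Pearson's r was 0.96 between Th and Ddc, 0.89 between Th and Slc6a4 and 0.88 between Ddc and Slc6a4. Slc6a3 had 0.75 with Th, 0.74 with Ddc, 0.58 with Slc6a4, and 0.80 and 0.84 with the Nr4a2 probe sets. Without BSKO 2 these were 0.79 with Th, 0.81 with Ddc, 0.67 with Slc6a4, and 0.72 and 0.80 with Nr4a2. The Nr4a2 probe sets had lower values of 0.43 and 0.44 with Th, and 0.35 and 0.37 with Ddc. With Pitx3 they had -0.65 and -0.68, or -0.006 and -0.002 without BSKO 2. Dbh had 0.30 with Th, 0.34 with Ddc and 0.12 with Slc6a4, and higher values of 0.61 with Slc6a3 and of 0.39 and 0.48 with Nr4a2. Without BSKO 2 its values were 0.48 with Slc6a3 and 0.08 and 0.20 with Nr4a2. These arrays share the same genotype groups and the same WT pairs, and the values are descriptions over 8 arrays.

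Genes with the pattern most like a member were ranked by the smaller of Pearson's r over 8 arrays and over the 7 without BSKO 2. Nearest to Th were Cds2 (0.99), Dao (0.96), Ddc (0.96), Extl2 (0.94) and Cp (0.94). Nearest to Slc6a3 were Lcat (0.97), Fbxo2 (0.96), Il1rap (0.94), Slc38a5 (0.94) and Aldh1a1 (0.94), and Aldh1a1 is an aldehyde dehydrogenase gene of a subset of midbrain dopamine neurons. Lcat, the nearest, spanned far less than Slc6a3, from -0.81 on BSKO 2 to 0.29 on WT 2. Nearest to Slc6a4 were Hoxb5 (0.99), a homeobox gene of the caudal hindbrain and spinal cord, C4bp (0.98), Lcn2 (0.97), Csf2rb2 (0.97) and Eya2 (0.96). Lcn2, an acute-phase gene, was at -0.15, 0.13, -0.13 and -0.01 on BSKO 1 to 4, against 5.14, 5.15, -0.32 and 0.01 on WT 1 to 4. It shared with Slc6a4 the high values on WT 1 and WT 2. Nearest to Dbh were Gtf2h4 (0.94), Pkhd1 (0.93), Ldlrad4 (0.89), Tbc1d8b (0.88) and Amacr (0.88).

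Of 21 probe sets for 15 other dopamine neuron genes, 15 had a lower mean in BSKO and 6 a higher one, none passed, and the median difference was -0.43 (-0.40 without BSKO 2), against 0.02 over all tested probe sets. The 4 genes with the smallest p were Anxa1, a marker of a dopamine neuron subset that other brain cells share (-1.60, SE 0.35, limma adjusted p = 0.182), Sox6, a transcription factor gene (-0.44, adjusted p = 0.233), En2, a homeobox gene of midbrain and cerebellum (-1.21, adjusted p = 0.342), and Aldh1a1 (-0.84, adjusted p = 0.405). Another Sox6 probe set, 1426018_a_at, differed by 0.77 through BSKO 2 alone, at 2.73, and by 0.08 without it. On WT 1 and WT 2, 9 of the 21 probe sets were at least 2-fold higher than on WT 3 and WT 4 (0.265% of all). Among them, named after their values were seen, were Foxa1 (2.12), En1 (1.61) and the nicotinic receptor subunit gene Chrna6 (1.44 and 2.09), which are known from developing or adult midbrain dopamine neurons.

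Of 8 probe sets for 6 other serotonin neuron genes, 6 had a lower mean in BSKO, none passed, and the median was -0.37 (-0.28 without BSKO 2). The genes with the smallest p were Htr1a, the autoreceptor gene of raphe neurons that cortex and hippocampus also express (-0.79 on 1438710_at, SE 0.19, limma adjusted p = 0.228), Htr5b (-0.996, adjusted p = 0.278), Gata2 (-0.25, adjusted p = 0.449) and Gata3 (-1.63, adjusted p = 0.481). Without BSKO 2 the Htr1a difference was -0.90 (limma adjusted p = 0.0489, where 1.63% of all probe sets were called). On all 8 arrays it passed with a term separating replicates 1 and 2 from 3 and 4 (adjusted p = 0.0419, where 84 of 22626 were called). It also passed after quantile normalization (0.0299) and with array weights (0.00556). It did not pass with a replicate block (0.195), with trend and robust options (0.0567) or when any array other than BSKO 2 was left out. Its difference was -0.76 in replicates 1 and 2 and -0.82 in replicates 3 and 4. Its other probe set, 1450219_at, differed by -0.19. Gata3, a transcription factor gene of raphe and other brainstem neurons, was at -1.22, -0.11, -0.87 and 0.47 on BSKO 1 to 4, against 2.58, 2.62, 0.11 and -0.51 on WT 1 to 4. It had the shape of Slc6a4, with WT 3 and WT 4 within the range of the BSKO arrays.

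The other noradrenaline neuron genes listed did not share the high values on WT 1 and WT 2. Of 8 probe sets for 6 genes, 7 had a higher mean in BSKO, none passed, and the median difference was 0.33 with 8 arrays and 0.10 without BSKO 2. None of the 8 was 2-fold higher or lower on WT 1 and WT 2. Slc6a2, the noradrenaline transporter gene, differed by 0.02 (SE 0.10). It spanned only 0.340 over the 8 arrays, and centred values do not show whether such a probe set was detected. Pnmt, which turns noradrenaline into adrenaline, differed by 1.04 on 1449804_at (SE 0.21, limma adjusted p = 0.153). Without BSKO 2 the Pnmt difference on this probe set was 0.87 (limma adjusted p = 0.0413, where 1.63% of all probe sets were called). Its probe sets disagreed in size, with 0.56 on 1450606_at and 0.27 on 1460269_at, or 0.34 and 0.12 without BSKO 2. Gal, the galanin gene of locus coeruleus and hypothalamus, was at 2.75, 2.50, 0.22 and -0.52 on BSKO 1 to 4, against -0.58, -0.40, 0.12 and -0.12 on WT 1 to 4, a difference of 1.48 (SE 0.70, limma adjusted p = 0.485) carried by BSKO 1 and BSKO 2. Phox2a, a transcription factor gene of noradrenaline neurons, differed by 0.39, and by 0.08 without BSKO 2. Tfap2b, another transcription factor gene, differed by -0.26, and by -0.46 without BSKO 2.

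Of 9 probe sets for 7 other enzyme and carrier genes of monoamine handling, 8 had a lower mean in BSKO, none passed, and the median was -0.13, or -0.07 without BSKO 2. Slc18a1, a vesicular amine transporter gene, differed by -0.47 (SE 0.17, limma adjusted p = 0.399), and Maoa by -0.44 (adjusted p = 0.403, and -0.28 without BSKO 2), on the 1 probe set of the table that is not centred on its median. Gch1, which makes the cofactor that Th and tryptophan hydroxylase need, differed by -0.76 on 1429692_s_at (adjusted p = 0.497) and was 1.34 higher on WT 1 and WT 2 than on WT 3 and WT 4. Spr, another enzyme of that cofactor route, differed by -0.14, and by -0.07 without BSKO 2.

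**Figure D3:**
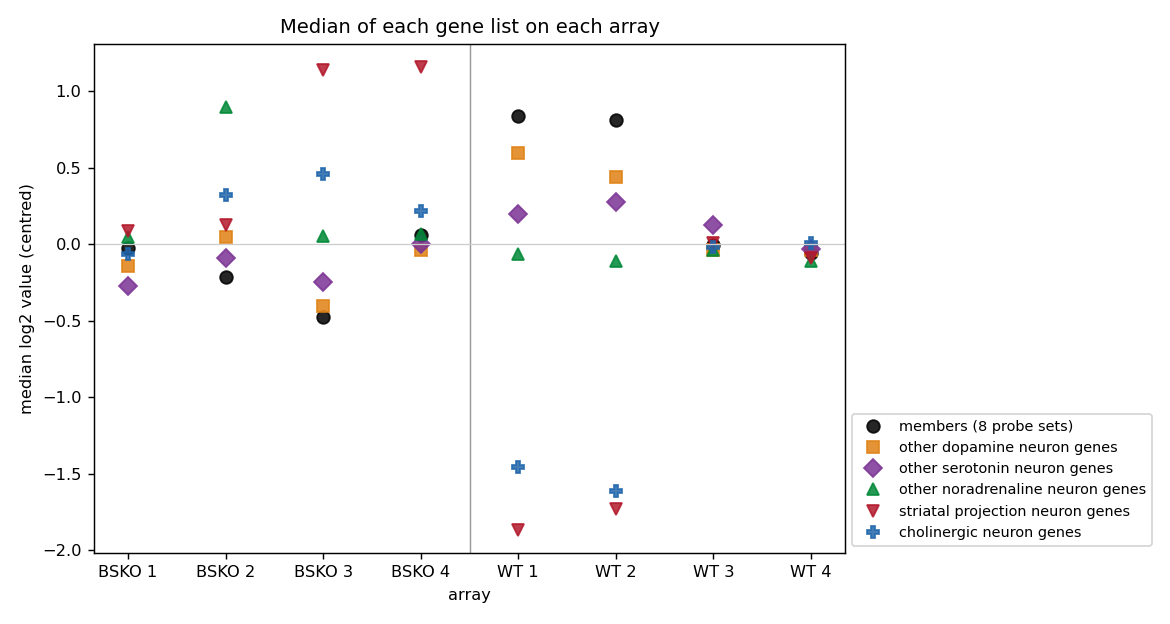
Median centred log2 value (vertical axis) of 6 gene lists on each of the 8 arrays, BSKO on the left and WT on the right. On WT 1 and WT 2 the member median is 0.84 and 0.81 while the striatal median is -1.87 and -1.73. On BSKO 3 and BSKO 4 the striatal median is 1.14 and 1.16.

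Some lists of markers of other brain regions and cells differed between the same WT pairs and others did not. The 10 probe sets for 7 of 11 listed striatal projection neuron genes had a list median of 0.09 to 1.16 on the BSKO arrays, and of -1.87 and -1.73 on WT 1 and WT 2, against 0.01 and -0.09 on WT 3 and WT 4. Of these 10, 8 were at least 2-fold lower on WT 1 and WT 2 than on WT 3 and WT 4, where 0.336% of all probe sets were. The 5 probe sets for 4 of 6 listed cholinergic neuron genes had list medians of -0.06 to 0.46 in BSKO and -1.61 to 0.01 in WT, lowest on WT 1 and WT 2. Among the 14 probe sets for 11 of 14 listed Hox genes, which mark hindbrain and spinal cord, 2 were at least 2-fold higher on WT 1 and WT 2 (0.265% of all). These were Hoxc4, by 2.77, and Hoxb5, by 1.86. The list medians of the Hox genes were -0.12 to 0.43 in BSKO and -0.21 to 0.26 in WT. The 16 probe sets for 5 of 6 myelin genes had list medians of -0.22 to 0.10 in BSKO and -0.000797 to 0.0110 in WT, and 0 of them differed 2-fold between the WT pairs. Nor did any of the 5 probe sets on the brainstem glycinergic list, with list medians of -0.90 to 0.02 in BSKO and -0.07 to 0.12 in WT. That list held Slc6a5, Glra1, Glrb and Slc32a1, of which Glrb and Slc32a1 are not specific to the brainstem. None of the 7 for choroid plexus genes did either, with -1.31 to 0.14 in BSKO and -0.03 to 0.06 in WT. Of the 15 probe sets for cerebellar neuron genes, 4 were 2-fold higher on WT 1 and WT 2, where 0.265% of all probe sets were. They belonged to only Cbln1 (1.30, 1.07 and 1.33) and En2 (1.09), and En2 is also on the dopamine neuron list. The cerebellar list medians were -0.27 to 0.11 in BSKO and -0.02 to 0.14 in WT. Drd1, Adora2a and Chat, which define these striatal and cholinergic cells, were not analysed here.

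With each array's striatal median (over 7 genes, probe sets averaged per gene) as a covariate in the fit, an alternative added after the data were seen, the member median was 0.07. Th (0.75), Slc6a4 (0.54) and Ddc (0.36) then had a higher value in BSKO, while Slc6a3 (-3.09, SE 1.83) and Nr4a2 (-1.05 and -1.74) stayed lower, each with an adjusted p of 0.636 by limma or more. The covariate itself differs between the genotypes, so the parts of the covariate and of genotype cannot be told apart.

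**Figure D4:**
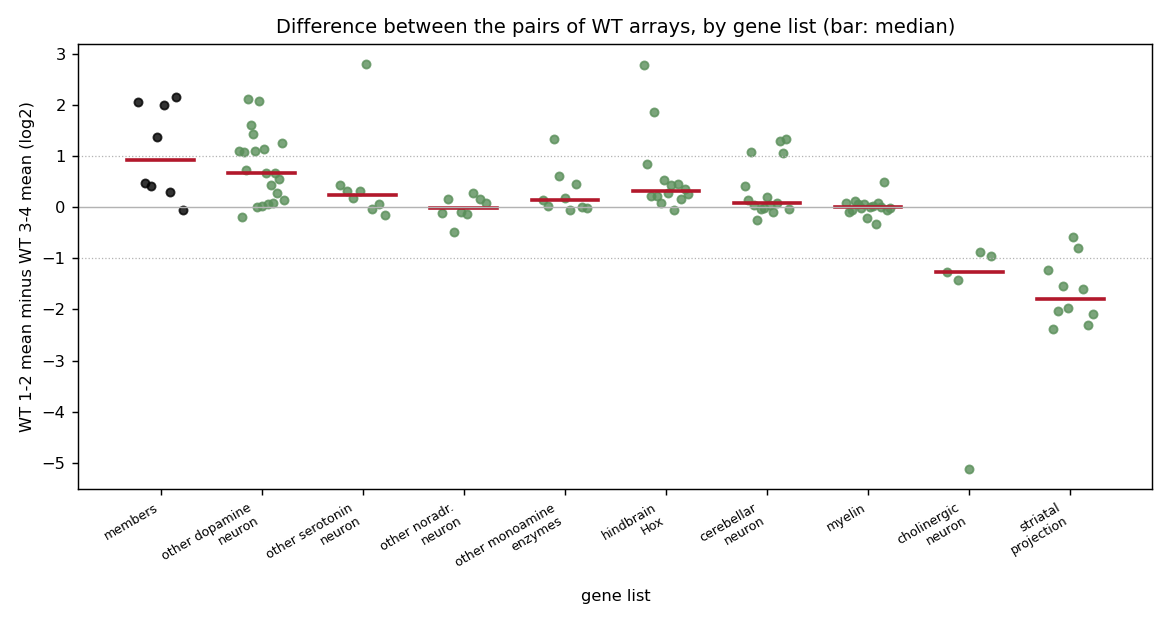
Mean of WT 1 and WT 2 minus mean of WT 3 and WT 4 on the log2 scale (vertical axis) for each probe set of 10 gene lists, with the median as a bar and dotted lines at 2-fold. The medians are 0.92 for the members, 0.68 for other dopamine neuron genes, -0.01 for other noradrenaline neuron genes, -1.27 for cholinergic and -1.79 for striatal genes.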

How the data were processed

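Whole-brain RNA of 4 BSKO and 4 WT mice was measured on 8 arrays. The authors deposited log2 values made with RMA, per the submitters' processing notes. Its version is not given in the sources used here. By the values themselves, which no label explains, the median over arrays was within 1e-05 of 0 for all but 1 of the 22690 probe sets. The 64 control probe sets were left out and 22626 tested with no filter. Symbols came from the platform annotation, matched by gene number to RefSeq (GRCm38.p6) for 20351 of the 20380 probe sets with 1 symbol (691 had several and 1555 none). BSKO was compared with WT by limma 3.58.1 in R 4.3.3 (lmFit, eBayes, no covariate, two-sided, Benjamini-Hochberg over all tested probe sets, threshold 0.05). The fit was also run on simulated data with independent normal noise, of the same SD on all arrays for a probe set. That simulation held neither an array like BSKO 2 nor the pairs of arrays, so it does not cover them. Exact permutation tests used scipy 1.17.1, and figures matplotlib 3.10.9. Members and lists were chosen with earlier results of these data known. The rule for named genes took all member probe sets, up to 4 genes per list with the smallest p, and the 5 genes most like Th, Slc6a3, Slc6a4 and Dbh. Alternatives were quantile normalization, array centring, leaving out probe sets with the suffix _s_at, _x_at or _a_at, array weights, and limma's trend and robust options. Others were the replicate number as a block, a term for replicates 1 and 2 against 3 and 4, leaving out each array, and 1 value per gene. The suffix filter removed both Nr4a2 probe sets, so Nr4a2 was not tested in it. The striatal covariate and the interaction without BSKO 2 were added after seeing the data.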

Additional observations from a re-analysis of the deposited data

Results flagged for a closer look

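For Ddc (1426215_at), BSKO 3 lay at -1.24, far from the other 3 BSKO arrays, which lay between -0.03 and 0.09. Its gap to the nearest of them, as a share of the group's range, was above Dixon's critical value for 4 samples. Th was also lowest on BSKO 3, at -1.14, without passing that value. Of 16 groups of 4 arrays examined this was the 1 that did so, where chance gives about 1 in 20.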

How the results depend on the processing

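No member probe set passed in any of the 17 alternatives, where the lowest adjusted p was 0.0873, for Slc6a3 without BSKO 4. All 8 kept their direction in every alternative that tested them, except with the striatal covariate, where Th (0.75), Ddc (0.36) and Slc6a4 (0.54) turned, as did Gata3 (0.021) and Gch1 (0.10), and the median over the members was 0.07. With array weights the Slc6a3 difference was -1.40 (BSKO 2 had a weight of 0.0456 and BSKO 4 of 3.69). Over all probe sets 7 were called by limma with 8 arrays, 678 after quantile normalization, 108 with trend and robust settings, 2617 with array weights, 84 when a term separated replicates 1 and 2 from 3 and 4, and, by the added striatal covariate, 0 (1403 at an unadjusted p under 0.05). Leaving out each array gave 0 (without WT 4, with 1576 unadjusted) to 369 calls (without BSKO 2). There was 1 call without WT 2 and also without WT 3, and there were 2 without WT 1 and also without BSKO 3. The interaction term was called for 4 probe sets, and for 42 without BSKO 2. A fit with a replicate block called 0 probe sets by limma (2121 unadjusted, against 2440 without it), and the member differences were identical. The deviations of same-numbered arrays correlated at 0.0858, 0.0562, 0.140 and 0.129 for replicates 1 to 4, and BSKO 2 correlated best with WT 1 (0.0878), so single numbers do not pair the arrays. All 8 correlations between BSKO and WT arrays within replicates 1 and 2 or within 3 and 4 were above 0 (0.0307 to 0.165). All 8 across them were below 0 (-0.147 to -0.0374). These deviations are from each genotype's own mean, so the positive and negative signs are not independent of each other. Of 268 values for 17 other probe sets, Sirt1 included, 252 kept their direction and side of the threshold, 14 newly passed it (Anxa1, Sox6, Htr1a, Htr5b, Pnmt and Slc18a1) and 2 reversed. Filtering out dim probe sets could not be done on centred values.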

Other observations

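Some peptide genes of hypothalamic neurons, chosen after their values were seen, separated the same replicates in another way. Of the 7 probe sets on the peptide list, 3 were at least 2-fold lower on WT 1 and WT 2 than on WT 3 and WT 4 (0.336% of all). There was 1 at least 2-fold higher (0.265% of all). Oxt, the oxytocin precursor gene, was at 3.42, 2.99, -0.05 and -0.20 on BSKO 1 to 4, against -2.22, -1.53, 0.19 and 0.05 on WT 1 to 4. BSKO 1 and BSKO 2 were thus the highest and WT 1 and WT 2 the lowest arrays, and in replicates 3 and 4 the genotypes lay close together. Cartpt, a peptide precursor gene, was at 1.28, 1.41, 0.05 and -0.10 on BSKO 1 to 4, against -0.57, -0.51, 0.03 and -0.03 on WT 1 to 4, again with BSKO 1 and BSKO 2 highest and WT 1 and WT 2 lowest. Hcrt, the orexin precursor gene of the lateral hypothalamus, was at 1.50, 1.62, -3.51 and -2.44 on BSKO 1 to 4, against 0.67, 0.81, -0.67 and -0.87 on WT 1 to 4. For Hcrt replicates 1 and 2 were the high ones in both genotypes.

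Lhx8, a homeobox gene of forebrain cholinergic neurons, was at -0.26, 0.32, 0.15 and 0.03 on BSKO 1 to 4, against -5.13, -5.09, -0.02 and 0.02 on WT 1 to 4. WT 1 and WT 2, where Th, Slc6a3 and Slc6a4 were highest, held its 2 low values.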
